A study of Mus musculus with 3 samples.

Results

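The miR-17-92 cluster and its paralogs, the miR-106a-363 and miR-106b-25 clusters, were followed in Müller glia (MG), the radial glia of the retina. The members were chosen by identity, as 10 mature miRNAs given by miRBase identifier, and 9 of the 10 had a row among the 602 miRNAs of the table. miR-17 (MIMAT0000649) was not analysed here because no row carries its identifier. All mice carried Rlbp1-CreER, a tamoxifen-dependent Cre driven by the promoter of a retinaldehyde-binding protein of MG, and a tdTomato reporter, and all were adult and received tamoxifen (75 mg/kg). The sample labels give 3 days of tamoxifen and the methods 4. Sorted tdTomato+ cells were pooled into 1 sample per condition. Wild type MG came from 40 retinas. The light damage (LD) sample came from 44 retinas collected 7 days after 8 h at 10000 lux, from mice crossed to the albino Swiss Webster strain with its light-sensitive Rpe65 variant. The Dicer-cKO sample came from 26 retinas with floxed Dicer, 1 month after deletion. The background strain was therefore not the same in all conditions and cannot be told apart from the light damage. According to the paper, the wild type and Dicer-cKO miRNA data had been published earlier, and their raw data were normalized again with the LD data. This difference in source likewise cannot be told apart from the light damage. Mature miRNAs were tagged and counted without amplification on the NanoString nCounter platform. Each condition thus rests on 1 library, so that no replicate error and no test can be given. The intervals below are 95% intervals and cover counting error only.

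miR-17-92 is transcribed as 1 primary RNA, from which the microprocessor cuts several hairpins that Dicer then cleaves into mature miRNAs. The cluster is driven by Myc and E2F factors and is best known for promoting proliferation and survival. miR-106b-25 lies in an intron of Mcm7, a subunit of the helicase that opens replication origins, and is transcribed with it. MG of the adult mouse retina do not normally divide, and proliferation-linked miRNAs are more abundant in dividing progenitors.

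A miRNA recognizes its targets mainly through its seed, bases 2 to 8, so the members were grouped by seed. The mature sequences below are from RefSeq (GRCm38.p6), all 10 matched by name, and are shown 5′ to 3′ with the seed in capitals because the clusters share seeds across chromosomes. The first 5 have the seed of miR-17.
miR-17: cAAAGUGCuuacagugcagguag
miR-20a: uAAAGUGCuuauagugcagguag
miR-106a: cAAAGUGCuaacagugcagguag
miR-106b: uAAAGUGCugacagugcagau
miR-93: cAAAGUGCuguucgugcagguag
miR-18a: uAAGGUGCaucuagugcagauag
miR-19a: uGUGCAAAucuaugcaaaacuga
miR-19b: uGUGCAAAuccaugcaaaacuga
miR-25: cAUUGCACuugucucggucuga
miR-92a: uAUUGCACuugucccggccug

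Counted from the 5′ end, miR-106a differs from miR-17 only by U10A and miR-19b from miR-19a only by U11C. miR-106a differs from miR-20a at 3 positions (U1C, U10A and U12C in miR-106a). Whether the row of miR-106a also counts miR-17, and how far the assay separates such close sequences, was not stated in the sources used here. In GRCm38.p6, miR-17, miR-18a, miR-19a, miR-20a, miR-19b and miR-92a lie on the + strand within chr14:115043684-115044496. miR-106b, miR-93 and miR-25 lie on the - strand within chr5:138165332-138165807, inside the span of Mcm7. miR-106a lies on the - strand of chromosome X (chr X, 52742541 to 52742563). miR-19b and miR-92a each have a second identical copy near miR-106a, so their rows cannot be assigned to 1 of the clusters.

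miR-204, miR-125b-5p and miR-9, which are abundant in MG, ranked 1, 2 and 3 of 602 in wild type MG, with 285706, 109596 and 75416 normalized counts. They ranked 2, 5 and 3 in the LD sample and 1, 2 and 3 in the Dicer-cKO sample. Their counts were lower there in the authors' scaling. The ratios of LD to wild type were 0.182, 0.174 and 0.515, and those of Dicer-cKO to wild type 0.107, 0.166 and 0.240. These ratios depend on the scaling. As a share of all miRNA counts, miR-9 had 9.62% in wild type, 8.30% in LD and 9.25% in Dicer-cKO MG. In the same order miR-204 had 36.4%, 11.1% and 15.6%, and miR-125b-5p 14.0%, 4.07% and 9.30%. miR-124, a neuronal miRNA, ranked 34 in wild type, 16 in LD and 4 in Dicer-cKO MG, with 1354, 5506 and 12106 counts. In the authors' scaling this was 4.07-fold (3.80 to 4.36) the wild type count in LD MG and 8.94-fold (8.35 to 9.58) in Dicer-cKO MG. The part of neuronal RNA in the member levels was not tested. Rows of the other neuronal, photoreceptor, immune, red blood cell and vessel miRNAs carry no names in the table and were not analysed here. In pooled sorted cells, fewer cells with a miRNA and less of it per cell cannot be told apart.

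The depth differed between the samples, and each member except miR-25 was below the level of the control rows in at least 1 of them. The deposited values are counts of molecules after subtraction of the mean negative control and multiplication by 1 factor per sample, of 1.15 (wild type), 2.04 (LD) and 4.42 (Dicer-cKO). Before scaling the miRNA counts summed to 678751, 230245 and 44290. The 14 ERCC control rows comprise 8 negative controls, so the highest negative control is at least the seventh highest ERCC row. In the wild type, LD and Dicer-cKO samples this row stood at 23.38, 31.5 and 38.62 counts, which corresponds to 27.0, 64.1 and 171 normalized counts, and it is called the control level below. The next ERCC row stood at 18.38, 5.5 and 1. Of the 602 miRNAs, 214 (wild type), 113 (LD) and 73 (Dicer-cKO) exceeded the control level. Of the 9 members, 7 exceeded it in the wild type sample, 5 in the LD sample and 1, miR-25, in the Dicer-cKO sample.

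miR-25 (MIMAT0000652), which shares its seed with miR-92a, had the highest counts of the members in each sample. It had 2358 normalized counts in wild type (2256 to 2462), 903 in LD (821 to 991) and 675 in Dicer-cKO MG (572 to 791). In the authors' scaling the wild type level was the highest and the intervals of the 3 samples did not overlap. The levels given below for the other members are also in that scaling. miR-92a (MIMAT0000539) stood at the lowest value of the table in every sample, which is 1, 2 and 4 normalized counts. miR-18a (MIMAT0000528), the only member with its seed, was also at the lowest value in all 3 samples. For these 2 members no change can be given.

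Among the members with the miR-17 seed, miR-20a (MIMAT0000529) had 320 normalized counts in wild type (284 to 360), 272 in LD (228 to 322) and 82 in Dicer-cKO MG (49.3 to 129). Wild type and LD levels overlapped in their intervals and the Dicer-cKO level was lower than both, but below the control level. miR-106a (MIMAT0000385) had 273 counts in wild type (239 to 310), 129 in LD (99.4 to 165) and 65 in Dicer-cKO MG (35.9 to 107). Here the LD level was below the wild type level, and the Dicer-cKO level was again below the control level. miR-106b (MIMAT0000386) had 59 counts in wild type (44.2 to 77.9), 66 in LD (45.4 to 93.1) and 65 in Dicer-cKO MG (35.9 to 107). The intervals of its 3 values overlapped, and the LD value, 32.5 counts before scaling, was just above the control level of 31.5. miR-93 (MIMAT0000540) had 87 counts in wild type (68.5 to 109) and 19 in LD MG (9.06 to 36.1), and in Dicer-cKO MG it was at the lowest value. Only its wild type value exceeded the control level.

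Both members with the miR-19 seed had similar counts in wild type MG, which does not compare their abundance, since each miRNA may be captured differently. miR-19a (MIMAT0000651) had 94 normalized counts there (74.7 to 117), 156 in LD (123 to 195) and 56 in Dicer-cKO MG (29.4 to 96.2). The LD value was the highest of the 3, and the Dicer-cKO value was below the control level. miR-19b (MIMAT0000513) had 91 counts in wild type (71.6 to 113), 36 in LD (20.9 to 56.6) and 91 in Dicer-cKO MG (56.2 to 140). The latter 2 values were below the control level of their samples, at 17.5 and 20.6 counts before scaling.

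**Figure D1:**
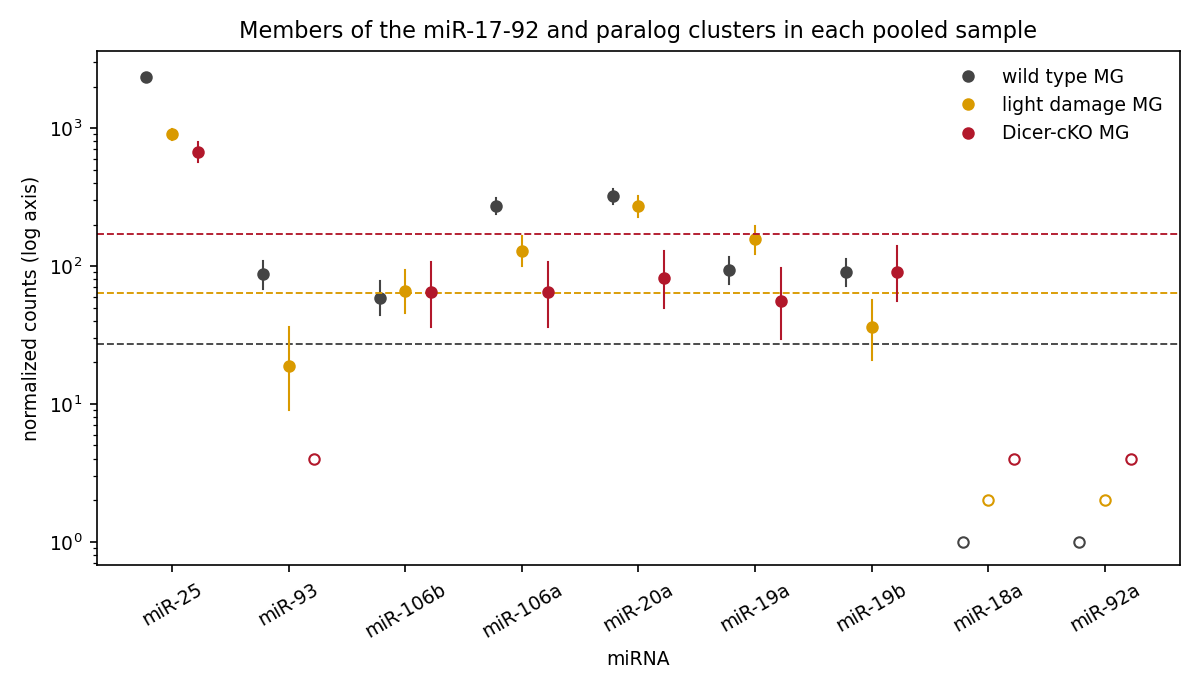
Normalized counts (log axis) of the 9 members in the 3 pooled samples, with lines for the 95% Poisson interval of counting error, open circles for values at the lowest value of a sample and dashed lines for the control level of each sample (27.0 for wild type, 64.1 for LD and 171 for Dicer-cKO). miR-25 is above the control level in all 3 samples, and in Dicer-cKO MG all other members lie below it.

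In the authors' scaling and beyond counting error, miR-25 and miR-106a were lower after LD than in wild type MG and miR-19a was higher, whereas the intervals of miR-20a and miR-106b included 1. The ratio of LD to wild type was 0.383 (0.345 to 0.424) for miR-25, but 0.641 under equal miRNA totals, 0.806 with Gapdh as the only reference and 0.984 under equal totals without miR-720. It was 0.473 (0.353 to 0.627) for miR-106a, which reached 1.21 under equal miRNA totals without miR-720. It was 0.850 (0.685 to 1.05) for miR-20a and 1.12 (0.696 to 1.76) for miR-106b, and over all scalings it ran from 0.426 to 2.18 and from 0.561 to 2.87. For miR-19a the ratio was 1.66 (1.20 to 2.29) in the authors' scaling, but 0.970 with Rpl19 as the only reference and 0.832 with the 6 highest ERCC rows. miR-93 and miR-19b had ratios of 0.218 (0.100 to 0.438) and 0.396 (0.220 to 0.667). Their LD values were below the control level, and with this level in their place the ratios were 0.736 and 0.708 in the authors' scaling. These are upper bounds for LD values at or below this level, without counting error. The highest negative control may lie above it. These bounds move with the scaling, and miR-19b itself had a ratio of 0.832 with Gapdh as the only reference and 1.02 under equal totals without miR-720.

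These changes are given beside those of the whole panel. A mean of 100 or more normalized counts over the 3 samples was reached by 104 miRNAs, of which 39.4% were at most 0.5-fold and 18.3% at least 2-fold the wild type level after LD, with a median ratio of 0.613. Under a scaling to equal miRNA totals, these shares were 25% and 27.1% of 140 miRNAs. Of the 104 miRNAs, 68 exceeded the control level in all 3 samples. The shares and medians of the panel thus also include values below this level. The mean was reached by 4 of the 9 members, miR-25, miR-20a, miR-106a and miR-19a, of which miR-19a exceeded 100 counts in the LD sample only. Of the 4, miR-25 and miR-106a were at most 0.5-fold and 0 were at least 2-fold. Because miR-19a is among the 4 only through its LD value, nothing is read from this share. Under equal miRNA totals 6 members reached the mean, of which 0 were at most 0.5-fold and 1 was at least 2-fold. The count of lower members was also 0 with the 100 highest miRNAs, the median of ratios or Gapdh alone as reference, where the share of the panel was 29.2% of 120, 18.9% of 122 and 12.7% of 118 miRNAs. With Rpl19 alone or the 6 highest ERCC rows the count was 3 of 3 members. The share of the panel there was 62.1% of 95 and 72.3% of 83 miRNAs. Among the 104 miRNAs 30 had a lower ratio than miR-25.

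After Dicer deletion, miR-25 was the only member above the control level in both samples, and its ratio to wild type was 0.286 (0.241 to 0.337) in the authors' scaling and 1.15 under equal miRNA totals. miR-20a had a ratio of 0.256 (0.152 to 0.411) and miR-106a of 0.238 (0.129 to 0.401). Their Dicer-cKO values lay below the control level, and with this level in their place the ratios were 0.533 and 0.625 in the authors' scaling. These are upper bounds for Dicer-cKO values at or below this level, without counting error. Under equal miRNA totals the ratios themselves were 1.03 and 0.954, so these bounds do not hold there. For miR-19a the ratio was 0.596 (0.300 to 1.08), for miR-106b 1.10 (0.565 to 1.98) and miR-19b had 91 counts in both samples (ratio interval 0.588 to 1.65). All 3 intervals include 1 in the authors' scaling, but under equal miRNA totals the ratios were 2.39 (miR-19a), 4.41 (miR-106b) and 4.01 (miR-19b). In the authors' scaling the control level in Dicer-cKO MG exceeds the wild type value of each of these miRNAs. A decline of miR-19a, miR-19b or miR-106b was therefore not detectable against this level, which rests on a single ERCC row. miR-93 was at the lowest value in Dicer-cKO MG and its wild type value is also under that level, so no ratio is given.

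Of the 104 miRNAs, 60.6% were at most 0.5-fold and 19.2% at least 2-fold the wild type level after Dicer deletion, with a median ratio of 0.388. Under equal miRNA totals the shares were 7.14% and 50.7% of 140. Of the 4 members with this mean, miR-25, miR-20a and miR-106a were at most 0.5-fold and 0 were at least 2-fold. Under equal miRNA totals 0 of 6 members were at most 0.5-fold and 3 were at least 2-fold. These 3, miR-19a, miR-106b and miR-19b, had Dicer-cKO values below the control level. Of them, miR-106b and miR-19b reached the mean only with their rescaled Dicer-cKO values, so nothing is read from this count. With values below the control level set to it, 1 of 6 members was at most 0.5-fold, as were 32.1% of 156 miRNAs, while 29.5% were at least 2-fold. This level was 27.0 counts in wild type and 171 in Dicer-cKO MG, so miRNAs below it in both samples appear higher in Dicer-cKO MG. Among the members, miR-19b and miR-93 reached the mean only with the inserted level. Nothing is therefore read from these counts and shares. Among the 104 miRNAs 41 had a lower ratio than miR-25.

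**Figure D2:**
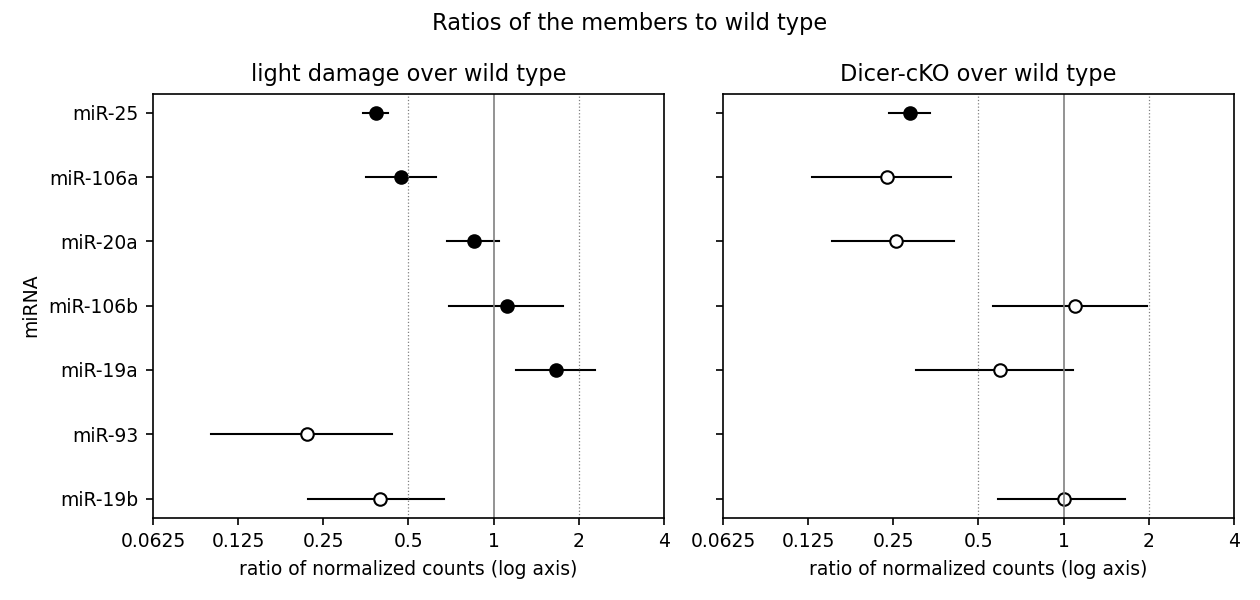
Ratio of normalized counts to wild type (log axis) for 7 members after LD (left) and after Dicer deletion (right), with 95% intervals of counting error in the authors' scaling. Filled points have both values above the control level, open points at least 1 value below it, and dotted lines mark ratios of 0.5 and 2. After LD the filled points run from 0.383 for miR-25 to 1.66 for miR-19a, and after Dicer deletion only miR-25 is filled. miR-93 is not drawn on the right because it was at the lowest value.

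Compared directly, LD over Dicer-cKO, miR-25 had a ratio of 1.34 (1.11 to 1.62). Under equal miRNA totals it was 0.559. The ratio was 3.32 (2.02 to 5.68) for miR-20a, 2.79 (1.53 to 5.53) for miR-19a and 1.98 (1.12 to 3.81) for miR-106a. With the Dicer-cKO values set to the control level these 3 ratios were 1.59, 0.912 and 0.757. These are lower bounds for values at or below that level, and those of miR-19a and miR-106a do not settle a direction. The bound of miR-20a depends on the scaling, since its ratio itself was 1.38 under equal miRNA totals. miR-106b had a ratio of 1.02 (0.537 to 2.05), with a lower bound of 0.387 from the control level, so its difference is not known. miR-19b and miR-93 were below the control level in both samples. Of the 104 miRNAs, 41.3% were at least 2-fold higher and 12.5% at most 0.5-fold after LD relative to Dicer-cKO, compared with 7.14% and 46.4% of 140 under equal miRNA totals. Of the 4 members with this mean, miR-20a and miR-19a were at least 2-fold higher and 0 were at most 0.5-fold. Both rest on Dicer-cKO values below the control level, and miR-19a reached the mean only through the LD sample in which it is the higher one, so nothing is read from this count. Under equal miRNA totals 0 of 6 members were at least 2-fold higher and 2 were at most 0.5-fold. These 2, miR-106b and miR-19b, reached the mean only with their rescaled Dicer-cKO values, which were below the control level. Nothing is read from this count either.

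**Figure D3:**
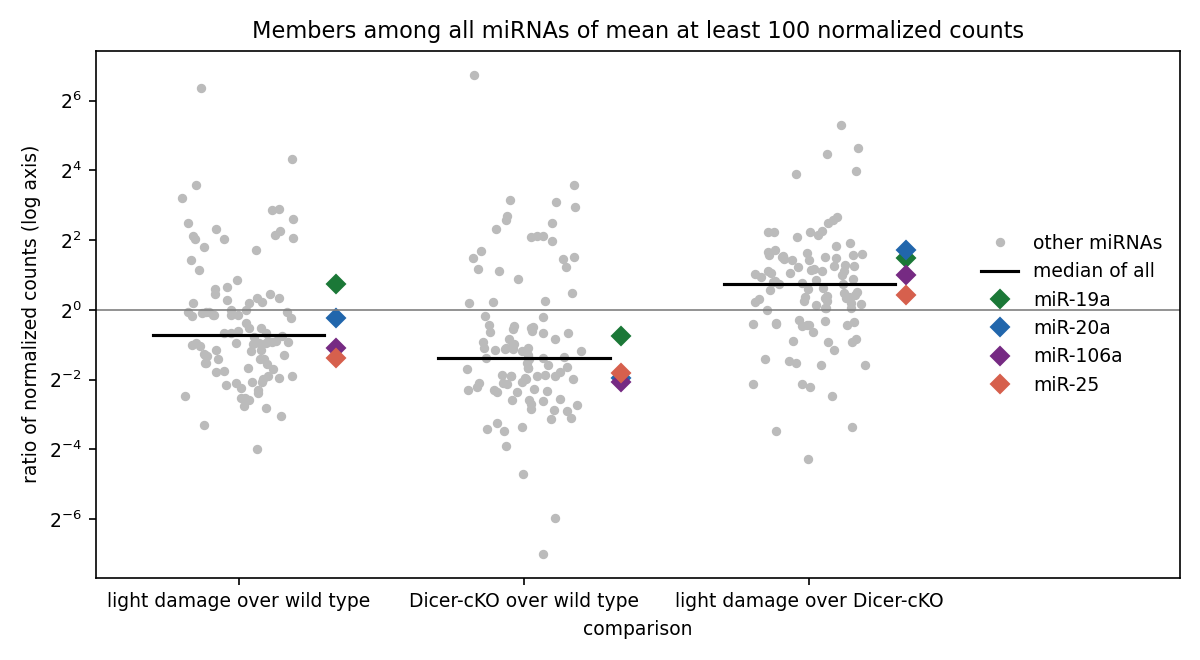
Ratio of normalized counts (log axis) in the 3 comparisons for the 104 miRNAs that had 100 or more normalized counts on average, with the 4 members that reach it as coloured diamonds and the median of all as a black line. After LD the members stand on both sides of the median of 0.613, with miR-19a and miR-20a above and miR-106a and miR-25 below it, but miR-19a is among the 104 only through its LD value. The comparisons to wild type share the wild type sample.

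The scaling factor of a sample cancels when the change of 1 member is divided by that of another, and so does the capture efficiency of each miRNA where it is the same in both samples. Of 10 pairs of cluster neighbours or of members with the same seed, 22 such comparisons had values, and in 4 all counts exceeded the control level. All 4 concern LD and wild type. miR-19a changed 1.95-fold (1.31 to 2.87) relative to miR-20a, its neighbour in the same primary RNA. miR-20a changed 1.80-fold (1.25 to 2.56) relative to miR-106a, although both have the same seed and differ at 3 positions. miR-106a changed 0.422-fold (0.249 to 0.757) relative to miR-106b, and miR-20a 0.760-fold (0.462 to 1.30) relative to miR-106b. Thus 3 of the 4 differences exceeded counting error, and none of them depends on the choice of reference. The difference between miR-106a and miR-106b rests on the LD value of miR-106b, 32.5 counts before scaling against a control level of 31.5.

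A further 4 pairs, each member above the control level against miR-25, were chosen after the values were seen. Relative to miR-25, miR-19a changed 4.33-fold (3.06 to 6.07) after LD, miR-106b 2.92-fold (1.77 to 4.63), miR-20a 2.22-fold (1.75 to 2.81) and miR-106a 1.23-fold (0.913 to 1.68). miR-106b and miR-25 come from the same Mcm7 intron, and the LD value of miR-106b was just above the control level.

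Summed over the rows above the lowest value, the miR-17 seed had 739 normalized counts in wild type (684 to 799), 486 in LD (427 to 552) and 212 in Dicer-cKO MG (156 to 281). The Dicer-cKO sum consists of 3 rows that are each below the control level and leaves out miR-93, and the LD sum includes miR-93 below it. In the authors' scaling, the LD to wild type ratio of this sum was 0.658 (0.564 to 0.764). It lay between the 0.383 of the miR-25 seed and the 1.04 (0.795 to 1.35) of the miR-19 seed. The latter sums miR-19a and miR-19b, whose ratios lie on opposite sides of 1, with the LD value of miR-19b below the control level. By cluster, the rows of miR-17-92 summed to 505 counts in wild type MG and 464 after LD, a ratio of 0.919 (0.778 to 1.08). Those of miR-106b-25 summed to 2504 and 988, a ratio of 0.395 (0.357 to 0.436), which was set by miR-25. The miR-17-92 sum lacks miR-17 and includes all of miR-19b. All these ratios of sums are in the authors' scaling, and another scaling multiplies them by a common factor. Under equal miRNA totals the 0.383 of the miR-25 seed, which is miR-25 alone, became 0.641. The order of the sums is kept, but their position relative to 1 depends on the scaling.

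As a rank within each sample, which does not depend on the scaling, miR-25 stood at 26 of 602 in wild type, 37 in LD and 40 in Dicer-cKO MG. miR-20a stood at 65 in wild type MG and at 65 after LD. miR-19a moved from 111 in wild type MG to 81 after LD, and miR-106a from 71 to 87. The 9 members together made up 0.419% (wild type), 0.338% (LD) and 0.535% (Dicer-cKO) of all miRNA counts. In the Dicer-cKO sample miR-25 alone, at 0.345%, was above the control level. miR-720, which made up 36.9% of the LD counts, is a tRNA fragment. Without it, miR-25 accounted for 3103, 3053 and 3655 of every 1000000 miRNA counts in wild type, LD and Dicer-cKO MG, and miR-19a for 124, 527 and 303. As a share of the remaining miRNAs, miR-25 thus differed little between wild type MG and LD, whereas the share of miR-19a was larger after LD.

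The miRNAs whose 2 ratios to wild type were nearest to those of miR-25, by Euclidean distance of the log2 ratios among the other 103, have no name in the table. MIMAT0000162 had 606, 229 and 175 counts in wild type, LD and Dicer-cKO MG and lay at a distance of 0.023. MIMAT0000524 had 3790, 1521 and 984 counts and lay at 0.16. Of the 103, 4 lay within 0.25.

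The 4 housekeeping mRNAs that set the scaling did not move in parallel. Gapdh had 799, 380 and 622 normalized counts in wild type, LD and Dicer-cKO MG, and Rpl19 had 742, 1269 and 701. The ratios were therefore recomputed under 9 other scalings. After LD, miR-25 was below its wild type level in all 10 scalings, from 0.192 to 0.984, the latter within counting error of 1, and miR-106a in 9 of 10. miR-19a was above it in 8 of 10 and miR-20a in 5 of 10. After Dicer deletion the ratio of miR-106a was under 1 in all 10 scalings, but 0.954 and 0.980 in both scalings to the same total miRNA count, which is within counting error of 1. Those of miR-25 and miR-20a were under 1 in 8 of 10, the exceptions being the same scalings. The Dicer-cKO values of miR-106a and miR-20a were below the control level.

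**Figure D4:**
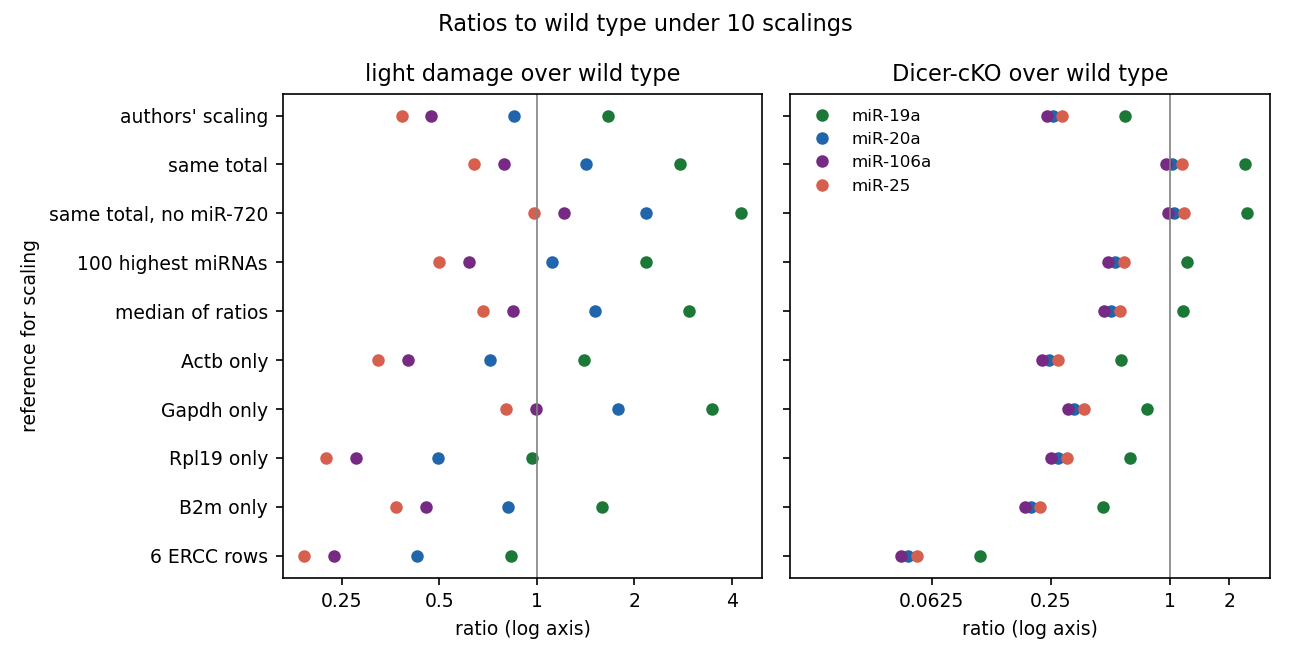
Ratio to wild type (log axis) of the 4 members with a mean of at least 100 normalized counts, after LD (left) and after Dicer deletion (right), under the authors' scaling and 9 others. A scaling shifts all points of a row together. In the authors' scaling miR-19a reaches this mean only through its LD value. After LD the order miR-19a, miR-20a, miR-106a, miR-25 is the same in each row, while the position relative to 1 changes, so that miR-25 lies below 1 in all 10 rows and miR-19a above 1 in 8.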

How the data were processed

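Of the miR-17-92, miR-106a-363 and miR-106b-25 members, the deposited table gives a signal, namely molecule counts that the authors had corrected for background and normalized with nSolver 4.0 against 4 housekeeping mRNAs, 8 negative and 6 positive controls. The multiplier of a sample was derived from the housekeeping and control rows, which keep 2 decimals. Dividing by it returned a whole count plus the decimals of the sample within 0.51 normalized counts for 342 of 342 miRNAs above the lowest value in wild type MG, 246 of 246 after LD and 243 of 243 in Dicer-cKO MG. Intervals are exact 95% intervals (Clopper-Pearson for ratios, Poisson for levels and sums, conditional for ratios of ratios) on these counts. They do not cover the error of the subtracted background. Ratios have no pseudocount. The calculation of the ratio interval was tested on simulated data, but not at counts as low as those of several members. The Poisson and conditional intervals were not tested.

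Members and lists were chosen with earlier results of these data known. All members were named, with the 3 miRNAs nearest to miR-25 (2 printed, since the table lacks names) and the cell type miRNAs. Names of members came from their identifiers, and those of miR-204, miR-125b-5p, miR-9, miR-124 and miR-720 from an earlier match of this table to the changes the paper plots. Other relatives by seed or hairpin have no names in the table and were not analysed here. Alternatives were 9 scalings, other limits of fold and mean, a pseudocount of 10 and, chosen after seeing the data, the control level as the lowest value. The analysis used scipy 1.17.1, pandas 2.3.3 and numpy 2.4.6 in Python 3.11.15, with figures drawn in matplotlib 3.10.9.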

Additional observations from a re-analysis of the deposited data

How the results depend on the processing

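No paired analysis was possible because there was 1 pooled sample of each kind. All members but miR-25 were below the control level in Dicer-cKO MG, which limits what can be said of them. A scaling multiplies every miRNA of a sample, and the median log2 ratio of the 104 miRNAs, -0.71 (LD) and -1.36 (Dicer-cKO) with the authors' scaling, lay between -1.70 and 0.65 and between -3.80 and 0.68, respectively, under the others. The limit on the mean was applied to the rescaled values, which changes the miRNAs counted. Under equal miRNA totals miR-106b and miR-19b reached it only with their rescaled Dicer-cKO values, so nothing is read from the counts they enter.

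The counts of members past 2-fold are given with the share of all miRNAs tested that were past the same limit. The members tested were 4 in the authors' scaling and from 2 to 6 under the alternatives, so the counts have different totals. At a mean of 200 only 2 members were tested. Lower after LD were 2 members (39.4%). This became 0 with the same total miRNA count (25%), the total without miR-720 (13.3%), the 100 highest miRNAs (29.2%), the median of ratios (18.9%), Gapdh only (12.7%) or a 3-fold limit (23.1%), and 1 at a mean of 200 (42.0%). The count of lower members rose to 3 with Rpl19 only (62.1%), the 6 highest ERCC rows (72.3%) or a mean of 50 (42.4%). Higher after LD were 0 (18.3%). This became 1 with the same total (27.1%), the 100 highest miRNAs (23.3%), the median of ratios (32.0%), Gapdh only (39.0%) or a 1.5-fold limit (22.1%), and 3 with the total without miR-720 (43.3%). Lower after Dicer deletion were 3 (60.6%). This became 0 with the same total (7.14%) or without miR-720 (7.33%), and 1 with the 100 highest miRNAs (26.7%), the median of ratios (27.0%) or the control level as lowest value (32.1%). With a 1.5-fold limit the count of lower members was 4 (69.2%), and at a mean of 200 it was 2 (63.0%). Higher after Dicer deletion were 0 (19.2%). This became 3 with the same total (50.7%) or without miR-720 (53.3%), and 1 with the 100 highest miRNAs (28.3%) or the median of ratios (27.9%). Lower in LD than in Dicer-cKO MG were 0 (12.5%). This became 2 with the same total (46.4%) or the control level (39.1%), and 1 with the total without miR-720 (36%), the 100 highest miRNAs (28.3%), the median of ratios (19.7%) or a mean of 50 (20.5%). Higher in LD than in Dicer-cKO MG were 2 (41.3%). This became 0 with the same total (7.14%), Rpl19 only (10.5%) or the control level (17.3%). It was 1 with the total without miR-720 (14.7%), the 100 highest miRNAs (16.7%), Actb only (32.7%), a 3-fold limit (21.2%) or a mean of 200 (40.7%). The 6 highest ERCC rows (85.5%) or a 1.5-fold limit (52.9%) gave 3, and Gapdh only gave 4 (62.7%).

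The direction of single members past 2-fold turned in 7 cases, each to a value within counting error of 1. With the total without miR-720, the LD ratio was 1.02 for miR-19b and 1.21 for miR-106a. With the same total and with the total without miR-720, the Dicer-cKO ratio was 1.03 and 1.05 for miR-20a and 1.15 and 1.18 for miR-25. For LD over Dicer-cKO, miR-19b had 1.08 with the 6 highest ERCC rows, from values below the control level in both samples. The 0.914 of miR-19a with the control level (0.912 from the counts before scaling) is a lower bound and no turn of direction. Counts of LD over Dicer-cKO at that level are set by the control levels of both samples. The shares of Dicer-cKO over wild type at that level are in part set by them too. The cause was not tested. The alternative with the control level was chosen after seeing the data.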
